A study of Mus musculus with 8 samples.

Results

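The transcripts described here encode the folding machinery of the endoplasmic reticulum (ER) and the signalling system that adjusts it, the unfolded protein response. The 36 genes were listed by function, and each was read from the 1 array feature (transcript cluster) whose annotation gives that gene's symbol alone, taking the cluster with the highest mean where a gene had several. In this way 35 of the 36 genes were measured, out of 22180 genes with such a cluster. Pdia4, a protein disulfide isomerase, shares its cluster with another symbol and was not analysed here. The samples were livers of male C57BL/6J mice, 3 wild type (WT) and 5 with Abhd15 knocked out (Abhd15 KO), on normal chow, 14 weeks old by the series design and taken 1 hour into refeeding after a night without food. The labels name the genotype only: they give no deleted exon, promoter or Cre, and do not say which mice were litter mates.

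The ER is where proteins bound for secretion or for membranes are folded, and hepatocytes secrete most plasma proteins. Unfolded protein in the ER is sensed by 3 membrane proteins, IRE1 (gene Ern1), PERK (Eif2ak3) and ATF6 (Atf6). IRE1 splices Xbp1 mRNA so that it encodes an active transcription factor, ATF6 is cut to release another, and PERK slows translation and favours ATF4. XBP1 and ATF6 then switch on chaperones, disulfide enzymes and the degradation machinery that returns misfolded proteins to the cytosol. In liver these genes are known to follow feeding, since a meal raises the load of secreted protein.

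Arrays were alike in overall level, with medians between 2.99 and 3.05 on the log2 scale over 41345 clusters. KO arrays 1 and 2 stood apart on the first principal component (22.1% of the variance), scoring 35.7 and 32.1 where the highest other array scored 0.661, and KO array 4 stood apart on the second. KO array 4 was also the lowest array for 27% of the 7699 brighter clusters (mean of 5 or more), where WT arrays 1 to 3 were lowest for 7.14% to 9.57%. Abhd15 read 5.46 to 5.81 in WT and 5.04 to 5.21 in KO livers, with no overlap. Values without KO arrays 1 and 2 are given for many of the genes and counts below where leaving them out turned a sign, changed a call or moved a value by more than about 1.5 times. Where no such value is given, stability is not implied. The 9 measured hepatocyte markers had a mean log2 level of 11.5 on each WT array and of 11.4 to 11.6 on the KO arrays, so markers of the labelled tissue were present.

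No gene of the ER folding system changed between KO and WT liver at an adjusted p of 0.05 with limma, nor did any of the 23521 clusters tested (0%). The smallest adjusted p among the 35 genes was 0.795. Edem2 and Pdia5, both higher in KO, had an unadjusted limma p below 0.05, which made 2 of the 35 genes (5.71%) against 6.08% of all clusters tested (2.75% higher and 3.32% lower). Groups were fully separate for 1 gene, Edem2, which was higher, where 1.99% of all clusters were higher without overlap and 2.44% lower. The number at an unadjusted p under 0.05 was 1 without WT array 1 (Pdia5), WT array 3 (Derl3) or KO array 3 (Edem2). Of all clusters, 5.43%, 5.23% and 5.74% were called there. The number was 0 without KO array 2 (5.91% of all clusters). Beside Edem2, Herpud1 took the place of Pdia5 without WT array 2 or KO array 5, and Derl3 did so without KO array 1. The number without overlap was 4 without WT array 3, all higher (Edem2, Canx, Derl3 and Sec61a1), where 4.8% of all clusters were higher and 5.46% lower. It was 2 without KO array 4, both higher (Edem2 and Pdia5), where 3.49% of all clusters were higher and 3.49% lower. Without KO array 5 it was 3, with Edem2 and Herpud1 higher and Edem3 lower, where 3.5% of all clusters were higher and 4.81% lower.

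Differences were small and leaned to the KO side, less so without WT array 1 or without KO array 5. Of the 35 genes, 23 (65.7%) had a log2 difference above 0 and 12 below, where 49.6% of all clusters were above 0, and 28 were above 0 when the columns were quantile normalized again. The differences ran from -0.12 (Derl1) to 0.40 (Pdia5, 1.32-fold), with a median of 0.06 beside -0.0018 for all clusters. The 95% confidence interval of the difference lay within 0.5 either way for 20 of the 35 genes and within 1 either way for all 35. For the other 15 genes the interval included differences larger than 0.5. Without KO arrays 1 and 2 the median was 0.13, with 31 genes above 0 and 4 below, where 48.7% of all clusters were above 0. Without WT array 1 it was 0.02, with 19 above 0, where 50% of all clusters were. Without KO array 5 the median was 0.02 as well, with 19 above 0, and the share of all clusters was not computed there. The median deviation of the genes on each array had an SD within groups of 0.11, larger than the median difference of 0.06.

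**Figure D1:**
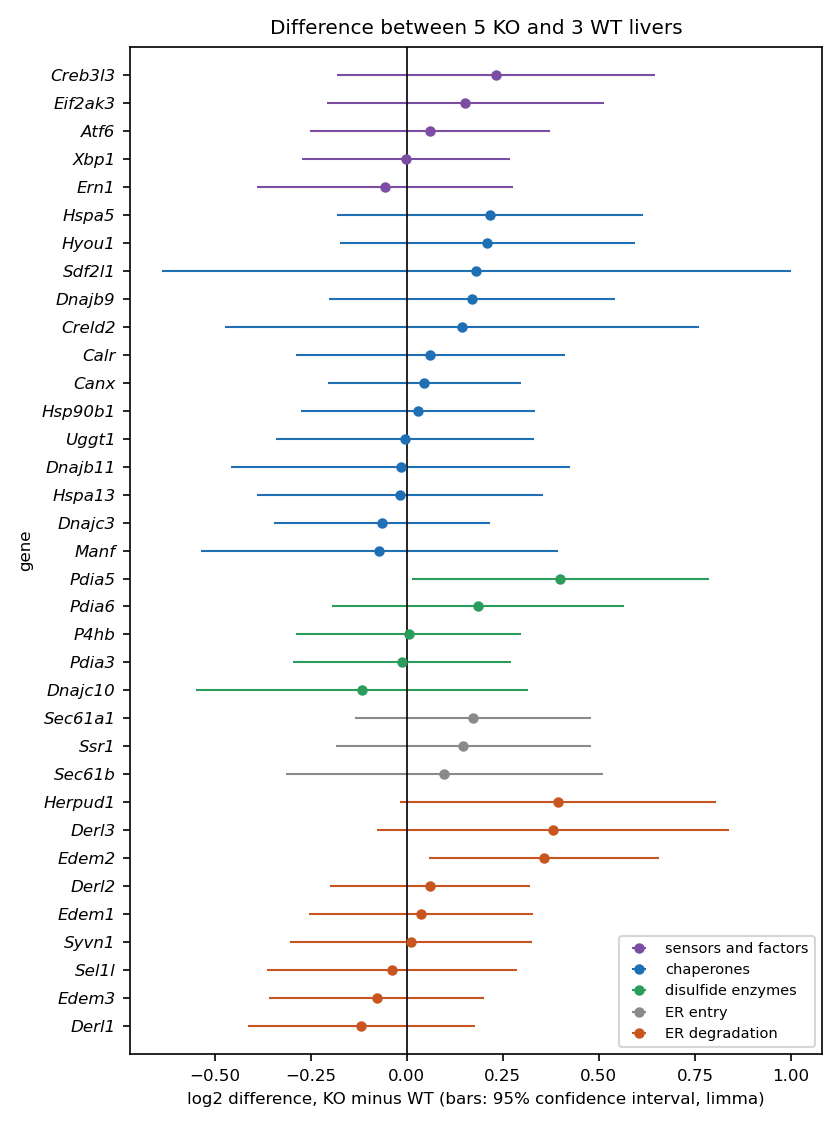
The log2 difference (KO minus WT, horizontal axis) of each of the 35 genes, coloured by role, with bars for limma's 95% confidence interval. The intervals of Edem2 and Pdia5 lie above 0, and those of the other 33 genes include 0.

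The genes shared part of the spread between single livers. WT array 1 was the lowest of the 8 arrays for 10 of the 35 genes and KO array 2 for 12 (34.3%), where these arrays were lowest for 8.4% and 14.3% of the brighter clusters. KO array 5 was the highest for 16 genes (45.7%), against 17.7% of these brighter clusters. The median deviation of the genes from their WT means was -0.10, 0.02 and 0.07 on WT arrays 1 to 3, and -0.08, -0.05, 0.12, 0.07 and 0.22 on KO arrays 1 to 5. The 3 arrays with a median below 0 thus came from both genotypes, and KO arrays 3 to 5 had the highest medians. The range over the 8 arrays had a median of 0.55 over the genes and of 0.56 over the brighter clusters.

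**Figure D2:**
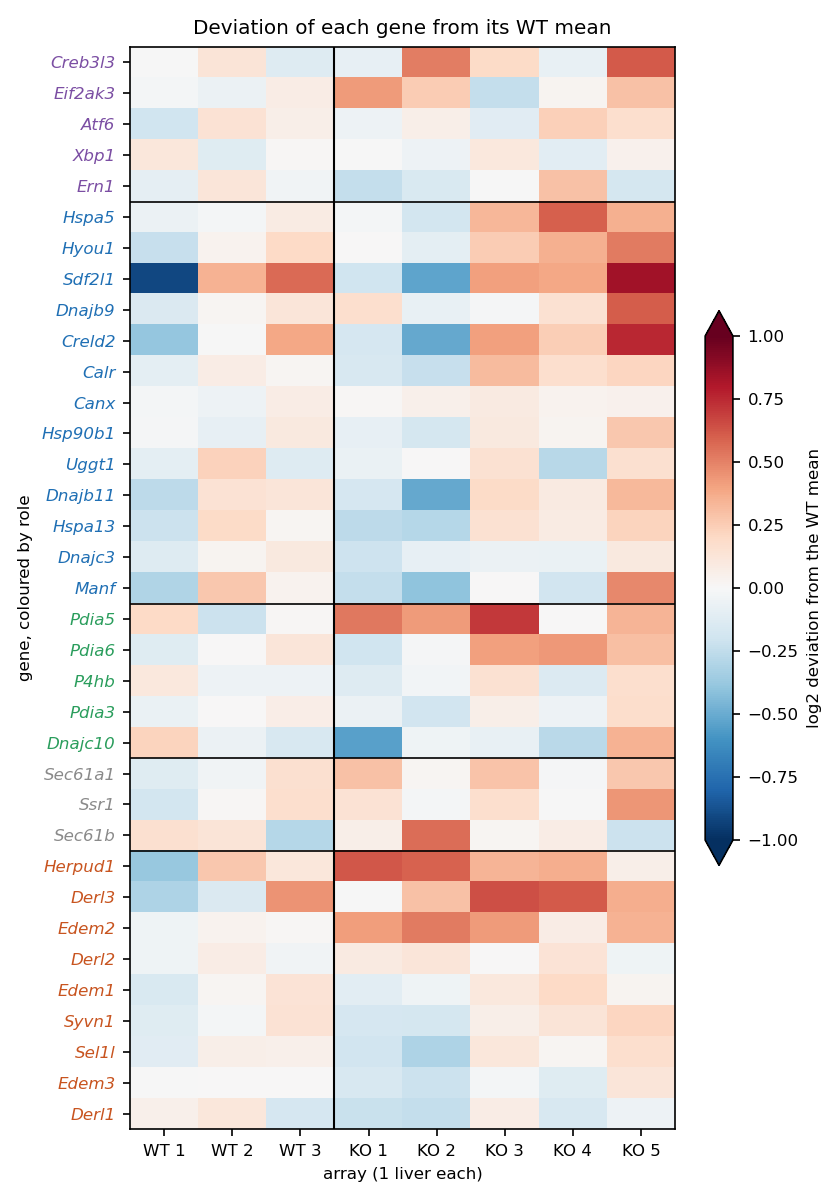
Heat map of the log2 deviation of each gene (rows, ordered by role) from its WT mean on each array (columns). Among the chaperones the median deviation is below 0 on WT 1, KO 1 and KO 2 and above 0 on the other arrays, and Sdf2l1 spans the widest range (1.75).

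Some of the genes carry a DNA sequence in common. The genes were chosen by function in the response in which this sequence is known to act. Its share among them is therefore a description and not an independent finding. The ER stress response element (ERSE), at which ATF6 and the CCAAT factor NF-Y are known to bind, consists of CCAAT and CCACG with any 9 bases between them, and a shorter form, ERSE-II, of ATTGG and CCACG with any 1 base between them. Both were searched on both strands in RefSeq's promoter windows of mouse build GRCm38.p6, from 250 bases before to 50 after each annotated start, which were listed for 30 of the 36 genes. An exact ERSE occurred in 9 of these 30 genes (28.1% of their 32 windows), and in 0.119% of all 32851 windows. With at most 1 of the fixed letters differing it occurred in 14 of the 30 genes, and in 1.5% of all windows. ERSE-II occurred in 2 of the 30 genes, Herpud1 and Dnajb11, and in 0.0365% of all windows. The core of the XBP1 element, TGACGTGG, occurred in 0 of the 30 genes and in 0.676% of all windows, which says only that these letters are absent from the windows. A match describes the sequence and was not tested for binding.

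The sites are shown because they join chaperones, a disulfide enzyme and degradation genes under 1 sequence. Each is read 5′ to 3′ on the strand that carries the element, with the element in capitals and 10 bases on either side.
Calr, chr8:84847065-84847103, plus strand: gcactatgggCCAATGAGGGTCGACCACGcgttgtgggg
Canx, chr11:50325790-50325828, minus strand: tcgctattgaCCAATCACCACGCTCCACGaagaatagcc
Creld2, chr15:88819510-88819548, minus strand: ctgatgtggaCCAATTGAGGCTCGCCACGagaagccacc
Dnajc3, chr14:118937817-118937855, plus strand: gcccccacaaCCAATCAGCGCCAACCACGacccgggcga
Hsp90b1, far site, chr10:86705628-86705666, minus strand: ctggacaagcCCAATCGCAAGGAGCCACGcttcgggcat
Hsp90b1, near site, chr10:86705523-86705561, plus strand: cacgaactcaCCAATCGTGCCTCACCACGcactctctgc
Pdia6, chr12:17266481-17266519, plus strand: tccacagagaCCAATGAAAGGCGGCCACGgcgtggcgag
Derl3, chr10:75893232-75893270, minus strand: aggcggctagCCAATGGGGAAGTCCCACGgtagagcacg
Syvn1, chr19:6046522-6046560, plus strand: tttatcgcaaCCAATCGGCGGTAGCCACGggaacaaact
Herpud1, ERSE-II, chr8:94386367-94386397, plus strand: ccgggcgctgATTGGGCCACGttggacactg

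For Hspa5, which encodes BiP, the chaperone that holds the sensors inactive, the 250 bases before the start (chr2:34771840-34772089, plus strand) are given whole, with its 1 exact ERSE in capitals, at positions -65 to -47 from the start.
Hspa5: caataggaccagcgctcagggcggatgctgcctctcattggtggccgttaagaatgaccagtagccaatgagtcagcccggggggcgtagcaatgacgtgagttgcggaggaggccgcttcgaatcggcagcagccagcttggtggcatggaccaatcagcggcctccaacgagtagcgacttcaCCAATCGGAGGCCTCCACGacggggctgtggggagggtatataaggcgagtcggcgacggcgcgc

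**Figure D3:**
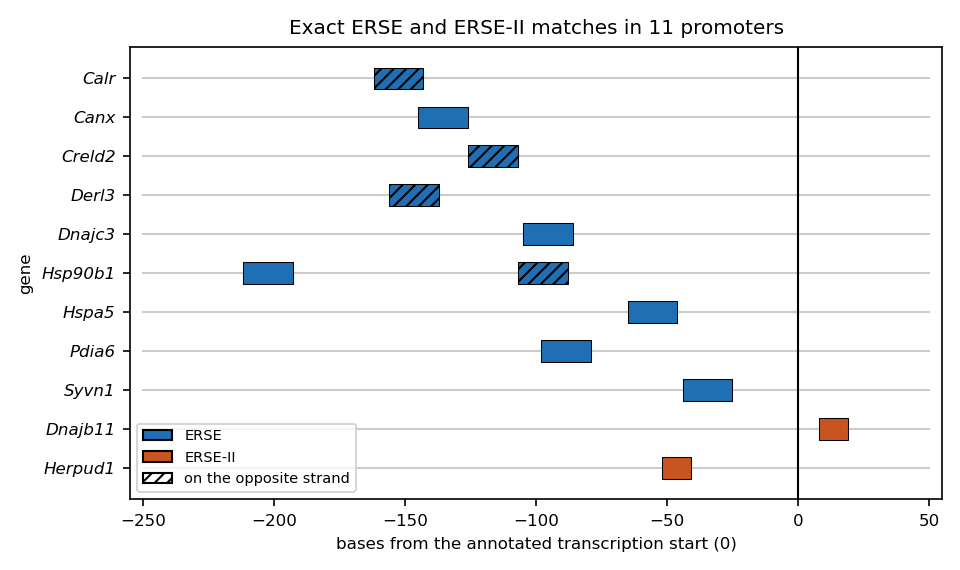
Position of each exact ERSE and ERSE-II (boxes, to scale) in bases from the annotated transcription start, for the 11 genes with a match; hatched boxes lie on the opposite strand. All 10 ERSE sites lie before the start, the farthest at -212 and the nearest ending at -26, and the ERSE-II of Dnajb11 lies after it.

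The 9 measured genes with an exact ERSE had a median log2 difference of 0.06, with 8 above 0, and the 20 measured genes with a listed promoter and no exact ERSE had a median of 0.05, with 12 above 0. By array, the median deviation of the ERSE genes from their WT means was -0.12, -0.02 and 0.10 in WT and -0.16, -0.17, 0.32, 0.17 and 0.27 in KO. That of the genes without was -0.06, 0.03 and 0.01 in WT and -0.06, -0.04, 0.11, 0.02 and 0.17 in KO. Both sets were thus lowest on the same 3 arrays, WT 1, KO 1 and KO 2. Without KO arrays 1 and 2 the medians of the log2 difference were 0.23 and 0.08. The difference between the sets was not tested.

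Among the sensors and their factors, 3 of 5 genes had differences above 0 and none reached an unadjusted p of 0.05. Without KO arrays 1 and 2 all 5 were above 0. Xbp1 read 9.289, 9.054 and 9.185 in WT and 9.173, 9.126, 9.279, 9.074 and 9.219 in KO. The KO arrays lay within the WT range, with a log2 difference of -0.00 (SE 0.122, limma adjusted p = 0.999, 95% confidence interval -0.27 to 0.27), or 0.01 without KO arrays 1 and 2. A cluster value counts spliced and unspliced Xbp1 together, so it does not report on IRE1 activity. Atf6 read 8.399, 8.745 and 8.662 in WT and 8.552, 8.659, 8.491, 8.841 and 8.772 in KO. WT array 1 was its lowest array, and the log2 difference of 0.06 (SE 0.141, limma adjusted p = 0.965) was -0.04 without that array and 0.10 without KO arrays 1 and 2.

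Ern1 read 7.555, 7.764 and 7.604 in WT and 7.403, 7.485, 7.635, 7.931 and 7.469 in KO. KO array 4 alone exceeded all WT arrays, and the log2 difference was -0.06 (SE 0.15, limma adjusted p = 0.974), or 0.01 without WT array 2 and 0.04 without KO arrays 1 and 2. Eif2ak3 read 5.516, 5.481 and 5.613 in WT and 5.964, 5.792, 5.298, 5.564 and 5.829 in KO. KO arrays 1, 2 and 5 lay above all WT arrays and KO array 3 below them, with a log2 difference of 0.15 (SE 0.163, limma adjusted p = 0.914), or 0.03 without KO arrays 1 and 2. Creb3l3, a liver factor of the ATF6 kind that is activated by cleavage in fasting and controls lipid genes, read 9.034, 9.170 and 8.914 in WT and 8.955, 9.548, 9.231, 8.969 and 9.656 in KO. KO arrays 2, 3 and 5 lay above all WT arrays, with a log2 difference of 0.23 (SE 0.187, limma adjusted p = 0.892). Of 6 genes listed as reported CREB3L3 targets, 1 had a difference above 0 (2 without KO arrays 1 and 2), and 0 were at an unadjusted p under 0.05. Apoa4 was at -0.37 (SE 0.232), or -0.20 without KO arrays 1 and 2, and Apoc2 at -0.16 (SE 0.134).

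Of the 13 chaperones, 8 had differences above 0 and 5 below, with a median of 0.05, and none reached an unadjusted p of 0.05. The count above 0 was 12, with a median of 0.20, without KO arrays 1 and 2. It was 6, with a median of -0.05, without WT array 1. Hspa5 (BiP) read 9.096, 9.133 and 9.233 in WT and 9.137, 8.974, 9.488, 9.748 and 9.506 in KO. KO arrays 3, 4 and 5 lay above all WT arrays, KO array 1 within their range and KO array 2 below. The log2 difference was 0.22 (SE 0.18, limma adjusted p = 0.892), and 0.43 (SE 0.15, adjusted p = 0.815) without KO arrays 1 and 2.

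Hyou1, a BiP partner of the HSP110 kind that exchanges its nucleotide, read 8.428, 8.696 and 8.856 in WT and 8.665, 8.565, 8.917, 9.019 and 9.183 in KO. As for Hspa5, KO arrays 3, 4 and 5 lay above all WT arrays. Its log2 difference was 0.21 (SE 0.173, limma adjusted p = 0.892), or 0.38 without KO arrays 1 and 2 and 0.09 without WT array 1. Dnajb9 (ERdj4), a J protein that directs BiP to IRE1, read 8.683, 8.846 and 8.950 in WT and 8.997, 8.751, 8.817, 8.981 and 9.429 in KO. KO arrays 1, 4 and 5 lay above all WT arrays, KO array 5 by the most, and the log2 difference of 0.17 (SE 0.168, limma adjusted p = 0.906) was 0.06 without it.

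The widest spread between livers belonged to Sdf2l1 and Creld2, described in full after their values were seen. Sdf2l1, a partner of ERdj3 and BiP that has been studied in the fed liver, read 6.290, 7.548 and 7.774 in WT and 7.002, 6.676, 7.613, 7.591 and 8.040 in KO. WT array 1 was lowest and KO array 5 highest, a range of 1.75. The log2 difference between the groups was 0.18 (SE 0.37, limma adjusted p = 0.96). That difference was -0.28 without WT array 1 and 0.54 without KO arrays 1 and 2. Creld2, a secreted ER stress protein, read 8.475, 8.861 and 9.249 in WT and 8.690, 8.347, 9.268, 9.106 and 9.615 in KO. Its range was 1.27 and its log2 difference 0.14 (SE 0.278, limma adjusted p = 0.96), or -0.05 without WT array 1, -0.01 without KO array 5 and 0.47 without KO arrays 1 and 2. At the other end Canx, the membrane lectin chaperone calnexin, stayed between 10.62 and 10.76 on all 8 arrays.

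Among the remaining chaperones, Calr (calreticulin, the soluble lectin chaperone) had a log2 difference of 0.06 and Hsp90b1 (GRP94, the HSP90 of the ER) one of 0.03. Calr turned to -0.00 without KO array 3, and Hsp90b1 to -0.01 without WT array 2 and -0.03 without KO array 5. Dnajc3 (p58IPK, a J protein) had -0.07 and Dnajb11 (ERdj3, a J protein) -0.02. Dnajb11 ran from -0.15 without WT array 1 to 0.11 without KO array 2. Manf, a secreted ER stress protein, had -0.07, Hspa13, an HSP70 family member, -0.02, and Uggt1, which tags misfolded glycoproteins for another round of folding, -0.00. In these 3 genes the sign turned when single arrays were left out, with values from -0.22 to 0.06 for Manf, -0.12 to 0.08 for Hspa13 and -0.07 to 0.11 for Uggt1. The differences of these 7 chaperones ran from -0.01 (Dnajc3) to 0.23 (Calr) without KO arrays 1 and 2.

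**Figure D4:**
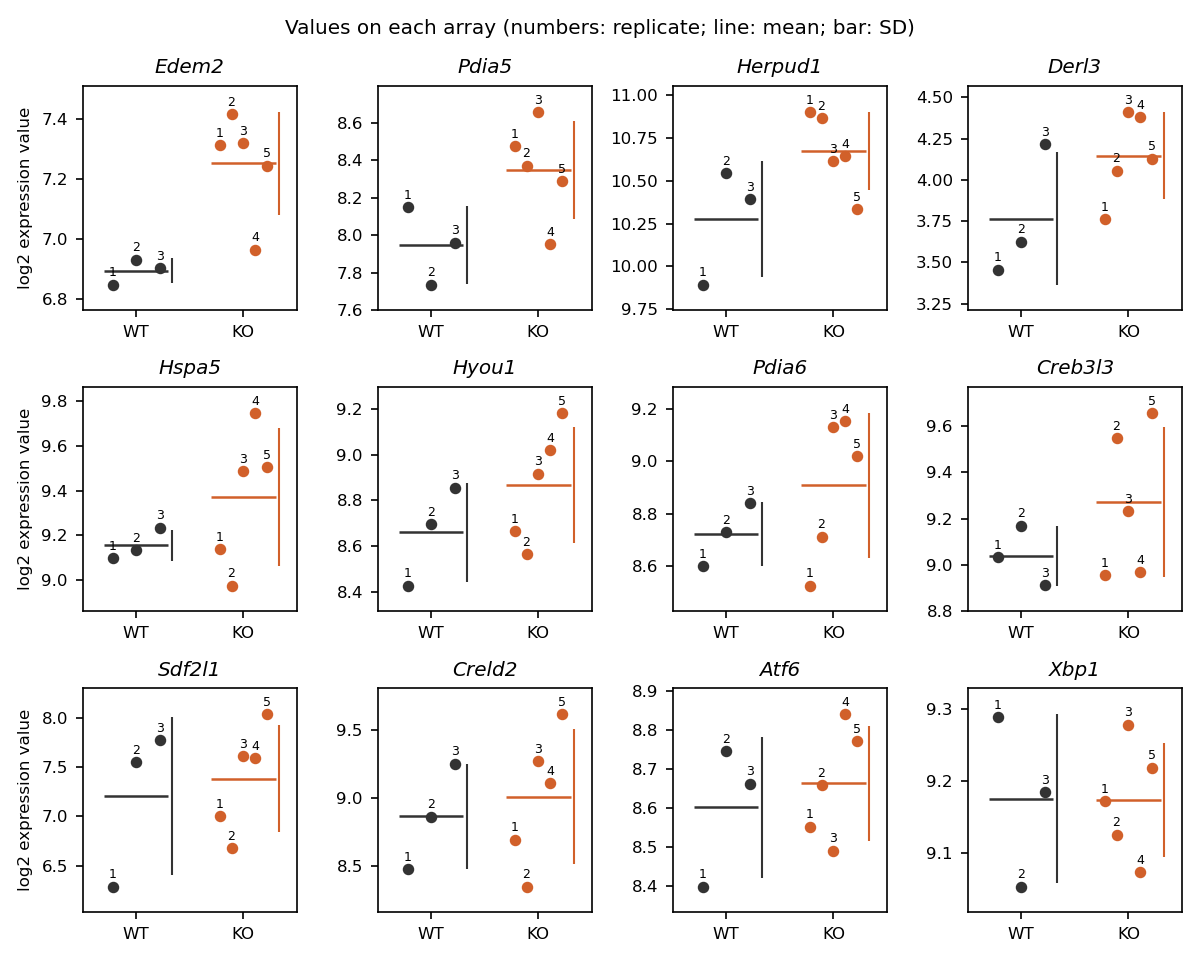
Log2 expression values of 12 genes in 3 WT and 5 KO livers; each point is an array, marked with its replicate number, with the group mean as a line and the SD as a bar. Edem2 is the gene without overlap between the groups, while Sdf2l1, Creld2 and Hyou1 are low on WT 1, KO 1 and KO 2.

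Of the 5 measured disulfide enzymes, which form and rearrange the disulfide bonds of new proteins, 3 had differences above 0, and all 5 did without KO arrays 1 and 2. Pdia5 read 8.151, 7.737 and 7.961 in WT and 8.475, 8.372, 8.658, 7.954 and 8.287 in KO. KO arrays 1, 2, 3 and 5 lay above all WT arrays and KO array 4 among them. The log2 difference was 0.40 (SE 0.174, limma p = 0.0437, adjusted p = 0.819), between 0.29 and 0.50 when single arrays were left out, with a two-sided exact permutation p of 0.0893. It was 0.35 (SE 0.21, limma adjusted p = 0.869) without KO arrays 1 and 2, no longer under 0.05 before adjustment. Pdia5 was above all WT arrays on KO arrays 1 and 2, where the median chaperone was below its WT mean. Pdia6 (ERp5) read 8.598, 8.728 and 8.840 in WT and 8.525, 8.711, 9.129, 9.152 and 9.020 in KO. It followed Hspa5, with KO arrays 3, 4 and 5 above all WT arrays, and its log2 difference was 0.19 (SE 0.171, limma adjusted p = 0.902), or 0.38 without KO arrays 1 and 2.

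Pdia3 (ERp57, the partner of the lectin chaperones) had a log2 difference of -0.01 and P4hb (PDI itself) one of 0.00, with leave-one-out values from -0.06 to 0.03 and -0.04 to 0.06. Dnajc10 (ERdj5, which reduces disulfides before degradation) had -0.12 (SE 0.195), and -0.01 without WT array 1 or without KO array 1. These 3 genes had 0.06, 0.06 and 0.001 without KO arrays 1 and 2.

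Of the 3 genes of ER entry, Sec61a1, the pore of the translocon, read 8.996, 9.083 and 9.284 in WT and 9.414, 9.143, 9.409, 9.112 and 9.392 in KO. KO arrays 1, 3 and 5 lay above all WT arrays, with a log2 difference of 0.17 (SE 0.138, limma adjusted p = 0.892). Ssr1 (whose second, dimmer cluster gave a log2 difference of -0.06), a subunit of the translocon-associated protein complex, read 7.370, 7.564 and 7.722 in WT and 7.699, 7.530, 7.721, 7.549 and 7.997 in KO. KO array 5 alone exceeded all WT arrays, with a log2 difference of 0.15 (SE 0.15, limma adjusted p = 0.906), or 0.06 without WT array 1. Sec61b, the small beta subunit, had a mean of 2.31, below the array medians, so that a signal above background is not shown, and its log2 difference of 0.10 (SE 0.186) was -0.04 without KO arrays 1 and 2. Its second cluster, dimmer still at a mean of 2.11, gave a log2 difference of 0.50 (SE 0.229), or 0.52 without KO arrays 1 and 2.

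Of the 9 genes of ER-associated degradation, 6 had differences above 0 and 3 below, and the 3 largest differences after Pdia5 lay here. Edem2, a mannosidase-like protein that starts the trimming of glycans on misfolded glycoproteins, read 6.849, 6.932 and 6.903 in WT and 7.313, 7.416, 7.320, 6.965 and 7.244 in KO. Each of the 5 KO values exceeded each WT value, that of KO array 4 by little. WT livers averaged 6.89 ± 0.0421 (SD, n = 3), and KO livers averaged 7.25 ± 0.172 (SD, n = 5). The log2 difference was 0.36 (SE 0.136, 1.28-fold, limma adjusted p = 0.795). The exact permutation test gave a two-sided p of 0.0357, where 0.0179 is the smallest that the 56 splits of 8 arrays allow. The difference lay between 0.32 and 0.43 when single arrays were left out, and was 0.28 (SE 0.155, limma adjusted p = 0.85) without KO arrays 1 and 2, no longer under 0.05 before adjustment. Edem2 stayed the 1 gene of the system without overlap in the full set, and the lack of overlap ended when arrays were centred on their medians.

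Herpud1, a ubiquitin-like ER membrane protein that recruits the degradation complex and carries the ERSE-II shown above, read 9.895, 10.544 and 10.392 in WT and 10.900, 10.863, 10.614, 10.644 and 10.332 in KO. KO arrays 1 to 4 lay above all WT arrays and KO array 5 below the 2 higher WT arrays. The log2 difference was 0.39 (SE 0.186, limma adjusted p = 0.838), with 0.20 without WT array 1, 0.53 without WT array 2 and 0.25 (SE 0.202) without KO arrays 1 and 2. Herpud1 was highest on KO arrays 1 and 2, on which the median chaperone was below its WT mean. Derl3, a derlin of the retrotranslocation channel, was dim, with 3.455, 3.625 and 4.217 in WT and 3.760, 4.055, 4.410, 4.379 and 4.128 in KO. KO arrays 3 and 4 lay above all WT arrays, with a log2 difference of 0.38 (SE 0.207, limma adjusted p = 0.846), or 0.23 without WT array 1, 0.61 without WT array 3 and 0.54 without KO arrays 1 and 2.

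The ubiquitin ligase Syvn1 (HRD1) and its partner Sel1l had log2 differences of 0.01 and -0.04, with leave-one-out values from -0.05 to 0.08 and from -0.10 to 0.03, and 0.13 and 0.10 without KO arrays 1 and 2. Derl1 and Derl2, the other derlins, had -0.12 (SE 0.133) and 0.06 (SE 0.118), and Edem3 -0.08 (SE 0.126), which became -0.04, 0.03 and -0.0033 without KO arrays 1 and 2. Edem1 gave 0.04 (SE 0.132), with -0.04 without WT array 1 and 0.11 without KO arrays 1 and 2, in its brighter cluster, while its dimmer cluster, with WT values of 3.85 to 3.96, gave -0.44 (SE 0.212). Without KO arrays 1 and 2 the dimmer cluster gave -0.73 (SE 0.142), with the KO arrays below all WT arrays. Its 2 clusters thus pointed in opposite directions.

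Without KO arrays 1 and 2, 5 genes lay above all WT arrays and 0 below in the cluster used for each gene, namely Edem2, Hspa5, Hyou1, Pdia6 and Calr. That was 14.3% of the 35 genes, where among the same 6 arrays 5.43% of all clusters were higher without overlap and 6.17% lower. Hspa5, Pdia6 and Derl3 were at an unadjusted p under 0.05 there (8.57% of the genes, against 5.98% of all clusters), and 0 passed with adjustment, as for all clusters (0%). The median deviation of the genes was below 0 on KO arrays 1 and 2 (-0.08 and -0.05), so leaving out these arrays favours higher KO values. WT array 1, with a median deviation of -0.10, was kept. These counts are therefore a description and not an independent finding.

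Other genes of the secretory pathway were listed by function, and 0 of them passed the adjusted threshold. Of all clusters, 49.6% had differences above 0 and 6.08% were at an unadjusted p under 0.05, to be read beside each list. Of 31 measured genes of ER entry and glycosylation (such as signal recognition particle, signal peptidase and oligosaccharyltransferase), 24 had differences above 0 and 7 below, with a median of 0.06. Stt3a, a catalytic subunit of oligosaccharyltransferase, had 0.31 (SE 0.138) and was the 1 gene of these 31 at an unadjusted p under 0.05. Of 20 genes of ER redox and folding, 14 were above 0, with Fkbp11, a prolyl isomerase, at 0.48 (SE 0.221). Of 22 genes of COPII transport and retrieval, 14 were above 0, with a median of 0.01, and KO array 5 was the highest array for 15 of them. Of 19 degradation partners 10 were above 0, with Ube2j2, an ER ubiquitin-conjugating enzyme at a dim mean of 4.45, at 0.46 (SE 0.177). Of 16 further regulators, such as the proteases that cut ATF6 and the subunits of NF-Y, 4 were above 0 and 12 below, with a median of -0.09 and Nfyc at -0.30 (SE 0.176), or -0.13 without KO arrays 1 and 2. Without these arrays the counts above 0 were 26 of 31, 14 of 20, 16 of 22, 10 of 19 and 4 of 16 in the order given, with 2, 3, 0, 1 and 0 genes at an unadjusted p under 0.05, and 0 adjusted. Of all clusters, 48.7% were then above 0 and 5.98% at an unadjusted p under 0.05. The median was then 0.11 for ER entry and glycosylation, 0.09 for ER redox and folding (0.05 with all arrays) and 0.09 for COPII transport and retrieval.

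The cytosolic heat shock genes had another order of livers than the ER chaperones, and the ATF4 branch differed from the chaperones on KO arrays 1 and 2. The median deviation from the WT mean of the 13 ER chaperones was -0.14, 0.04 and 0.09 in WT and -0.16, -0.18, 0.15, 0.09 and 0.32 in KO. That of 13 cytosolic heat shock genes was 0.04, 0.09 and -0.08 in WT and 0.44, 0.34, 0.44, 0.04 and 0.17 in KO, so that KO arrays 1 and 2 were among the highest there and the lowest for the ER chaperones. Of the 13, 12 had differences above 0, against 49.6% of all clusters, and 4 were at an unadjusted p under 0.05, against 6.08%, with Hspa1a at 1.70 (SE 0.206). Leaving out KO arrays 1 and 2 gave 10 and 3. Of 17 genes of the ATF4 branch, 12 with a dim mean under 5, 13 were above 0 and 3 were at an unadjusted p under 0.05, to be read against the same shares. Leaving out KO arrays 1 and 2 gave 12 and 1. The median deviation of this branch was 0.03, -0.06 and 0.02 in WT and 0.17, 0.19, 0.03, 0.16 and 0.20 in KO. It was highest on KO array 5, as for the ER chaperones, but high on KO arrays 1 and 2 as well. Asns read 7.749 and 7.511 on KO arrays 1 and 2, 5.262 to 5.527 on the other KO arrays and 4.348 to 4.915 in WT. Ddit3 (CHOP), which PERK signalling induces, read 6.182, 6.270 and 6.812 in WT and 5.949, 6.441, 6.775, 6.894 and 6.853 in KO, a log2 difference of 0.16 (SE 0.237), or 0.42 without KO arrays 1 and 2.

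**Figure D5:**
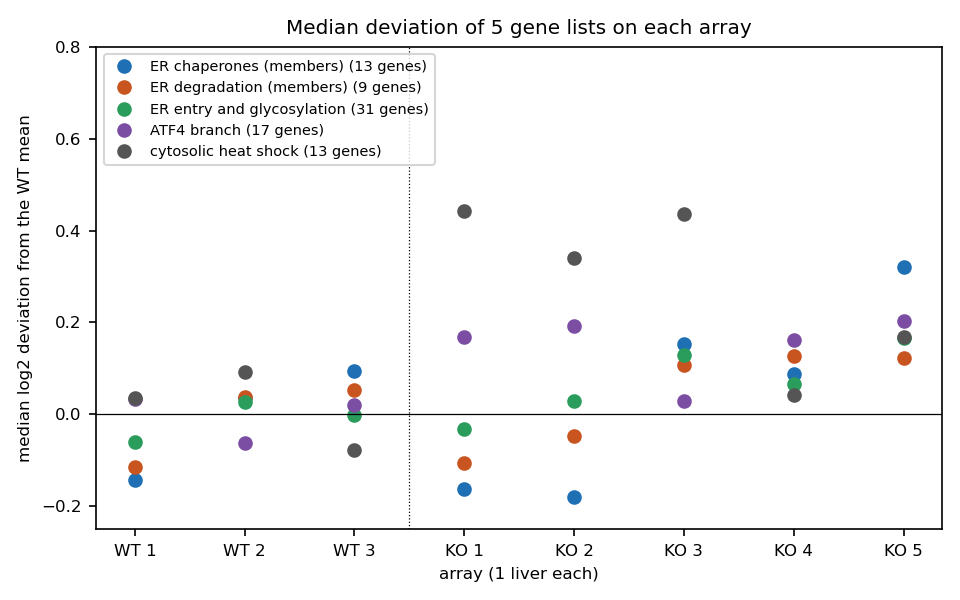
Median log2 deviation from the WT mean of 5 gene lists on each array. The ER chaperones are lowest on WT 1, KO 1 and KO 2 (-0.14, -0.16 and -0.18) and highest on KO 5 (0.32), while the cytosolic heat shock genes are high on KO 1, KO 2 and KO 3.

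In bulk liver, fewer cells of a type and less RNA per cell cannot be told apart. Plasma cells and exocrine pancreas, which carry much ER chaperone RNA, were checked by marker lists. The mean of 8 plasma cell markers was 2.70 to 2.96 in WT and 2.70 to 3.12 in KO livers, and that of 9 pancreas markers 2.43 to 2.77 and 2.44 to 2.59. Apart from the plasma cell mean of 3.12 on KO array 3, these lay below or within the array medians of 2.99 to 3.05, with 0 markers of either list at an unadjusted p under 0.05. The mean of 7 macrophage markers was 5.86 to 6.33 in WT and ran in KO from 5.76 on array 4 to 6.93 on array 3, both arrays on which the ER chaperones were above their WT means. Their part in the values of single livers was not tested.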

How the data were processed

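The authors deposited log2 expression values for 41345 transcript clusters on 8 Affymetrix Mouse Gene 2.0 ST arrays, 1 per titled replicate. Per the submitters' processing notes RMA and oligo were used, and the series design text names Expression Console; for versions, settings and build, none is given in the sources used here. RMA is known to shrink differences of dim clusters. Values between 0.409 and 13.27 were read as log2. Scanner files and batch labels were not used here.

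Groups and replicate numbers came from the sample titles. Animals are not listed, so each replicate was taken as 1 liver, which the titles do not state. A p-value therefore reflects only how these samples vary, which may be technical. Clusters with 1 symbol in the platform annotation (23521) were fitted together, KO minus WT, with limma 3.58.1 in R 4.3.3 (lmFit, eBayes), with two-sided tests and Benjamini-Hochberg adjustment over all of them. Exact permutation tests of single genes, run for all 35, used the 56 splits. The code was tested on simulated data. The number of arrays limits precision.

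The genes and lists were chosen with earlier results of these data known. Described in full were the 12 genes with the smallest limma p, the sensors and Hspa5; from each other list at most the 2 with the smallest p were named. Sdf2l1, Creld2 and Ddit3 were singled out after their values were seen. Promoter windows are RefSeq's (GRCm38.p6), searched with Python 3.11.15.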

Additional observations from a re-analysis of the deposited data

Results flagged for a closer look

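Among the KO livers the mean log2 level of the 3 ER entry genes (Sec61a1, Sec61b and Ssr1) was 6.33 on KO array 4, the lowest, and 6.47 on the next lowest array. The gap made up a share of 0.828 of the range of the 5 KO values, above the critical value of 0.71 that about 1 in 20 such groups passes by chance. In all 48 groups of KO values were checked, 35 genes and 13 lists, and this was the 1 that passed, fewer than that rate gives. KO array 4 was also the lowest array for 27% of all clusters with a mean of 5 or more.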

How the results depend on the processing

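The count of 0 genes past the adjusted threshold held under the 16 alternatives run, with a lowest adjusted p of 0.52 (limma). The count at an unadjusted p under 0.05 (2) was 1 with all clusters fitted together and 0 to 2 with single arrays left out. It was 3 with trend and robust eBayes, with clusters of a mean of at least 5 (33 genes), with quantile normalization and without KO arrays 1 and 2. Shares of all clusters are given above for some left-out arrays. For the other settings, the block below among them, they were not computed, so a changed count there is not read as a result about the genes. The count without overlap (1) was 5 without KO arrays 1 and 2, 0 with median centring and 1 to 4 with single arrays left out. With the replicate number as a block, which leaves KO arrays 4 and 5 without a partner, the median log2 difference was -0.0023 (17 of 35 above 0), and 3 genes were at an unadjusted p under 0.05. Same-numbered arrays had correlations of -0.0477, 0.0157 and 0.0212 between their deviations from the group means. These 3 values show no pairing by number, but they are too few to exclude it. The sign was kept in every alternative for 17 genes and turned in at least 1 for 18. Under the block the differences whose sign turned were Atf6 -0.0347, Xbp1 0.0167, Hsp90b1 -0.0507, Calr -0.0253, Sdf2l1 -0.107, Creld2 -0.0933, Uggt1 0.031, P4hb -0.0023, Edem1 -0.0153 and Syvn1 -0.0947. Without KO arrays 1 and 2 they were Ern1 0.0373, Xbp1 0.0147, Dnajb11 0.1993, Manf 0.0957, Hspa13 0.154, Uggt1 0.012, Pdia3 0.0607, Dnajc10 0.001, Sel1l 0.101 and Sec61b -0.041. With quantile normalization they were Xbp1 0.0144, Dnajb11 0.0091, Hspa13 0.0268, Uggt1 0.0267 and Pdia3 0.0022, with median centring Xbp1 3e-04, and with the mean of a gene's clusters Edem1 -0.2034. With single arrays left out the ranges were -0.0405 to 0.1325 for Atf6, -0.0031 to 0.1347 for Calr, -0.0498 to 0.3372 for Creld2, -0.1476 to 0.1079 for Dnajb11, -0.0391 to 0.1044 for Edem1, -0.143 to 0.0051 for Ern1, -0.0305 to 0.0805 for Hsp90b1, -0.1235 to 0.079 for Hspa13. They were -0.2209 to 0.0621 for Manf, -0.0356 to 0.056 for P4hb, -0.0597 to 0.0316 for Pdia3, -0.2766 to 0.4654 for Sdf2l1, -0.0461 to 0.1784 for Sec61b, -0.0968 to 0.0277 for Sel1l, -0.0488 to 0.0827 for Syvn1, -0.0686 to 0.1084 for Uggt1 and -0.0628 to 0.0547 for Xbp1. The cause of these turns was not tested. Signal over background was not checked, since scanner files were not used here.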
